A study of Mus musculus with 12 samples.

Results

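The MHC class I antigen presentation genes are described here in mouse mesenchymal stem cells (MSCs) with and without Dicer. The 10 genes were taken from the deposited expression table by name: the classical class I heavy chains H2-K1 and H2-D1, the class I light chain B2m, the peptide transporter subunits Tap1 and Tap2, the loading factor Tapbp, the immunoproteasome subunits Psmb8, Psmb9 and Psmb10, and the class I transactivator Nlrc5. All 10 names were found among the 21881 genes of the table, and all 10 passed the filter on low values (3 or more libraries at an FPKM of 1 or higher), Nlrc5 only through the groups in which it is high. FPKM counts the sequenced fragments of a gene per kilobase of its transcript relative to all fragments mapped in that library.

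The cells were immortalized monoclonal lines of bone marrow MSCs from C57BL/6 mice, a fibroblast-like cell type. WT cells carried floxed Dicer alleles (Dicer f/f), and KO cells were Dicer -/-, so that they lacked the nuclease that cuts microRNA precursors. Each of the 4 groups had 3 libraries of polyadenylated RNA, numbered 0, 1 and 2: WT_siCtrl and KO_siCtrl received a nontargeting control siRNA, KO_let-7g a synthetic duplex of the microRNA let-7g, and KO_siNr6a1 an siRNA against Nr6a1, an orphan nuclear receptor gene. Every group was transfected at 20 nM with a lipid reagent and harvested 48 h later, so the controls carry a transfected siRNA too. The labels do not state how many lines stood for each genotype, and genotype and line cannot be told apart. Nor do they call the libraries of a group separate cultures: the spread that the p-values rest on may be technical.

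Class I molecules show peptides from inside the cell to CD8 T cells and natural killer cells. The proteasome, or its interferon-inducible form with exchanged catalytic subunits, cuts proteins into peptides. The TAP1 and TAP2 heterodimer pumps these peptides into the endoplasmic reticulum, where tapasin holds the empty heavy chain and its light chain, beta-2 microglobulin, at the transporter until a peptide binds. NLRC5 drives class I genes from a promoter module bound by RFX, CREB and NF-Y factors, and the same promoters carry sites for NF-kappa-B and interferon regulatory factors. Most cells outside the blood keep a low level of this pathway that interferon raises.

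The promoters of 4 genes that fell together in KO cells are shown so that motifs of these factors can be read in them. RefSeq promoters (build GRCm38.p6, 300 bases each, from 250 before to 50 after the start site) were found for 8 of the 10 genes, and Tap2 and Nlrc5 had none in the table. Capitals mark, on either strand, matches of an interferon regulatory factor core (AANNGAAA), a kappa-B motif (GGGNNNNNCC), a CRE core (TGACG) and CCAAT, motifs chosen after the sequences had been seen. Capitals run on where kappa-B matches overlap one another.
H2-K1 (chr17:34000298-34000597, minus strand): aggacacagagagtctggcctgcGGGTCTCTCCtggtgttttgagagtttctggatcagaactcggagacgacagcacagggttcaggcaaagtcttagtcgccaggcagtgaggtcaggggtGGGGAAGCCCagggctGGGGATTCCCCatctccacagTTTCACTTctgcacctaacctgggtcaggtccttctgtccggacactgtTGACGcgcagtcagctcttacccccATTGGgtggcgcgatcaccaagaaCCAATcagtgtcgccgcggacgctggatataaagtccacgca
H2-D1 (chr17:35262844-35263143, plus strand): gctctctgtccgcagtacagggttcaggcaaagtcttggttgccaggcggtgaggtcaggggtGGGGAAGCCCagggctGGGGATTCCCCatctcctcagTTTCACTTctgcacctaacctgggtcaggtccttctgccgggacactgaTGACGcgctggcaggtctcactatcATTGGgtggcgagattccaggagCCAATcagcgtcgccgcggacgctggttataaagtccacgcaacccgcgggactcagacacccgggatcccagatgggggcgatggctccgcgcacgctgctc
B2m (chr2:122147437-122147736, plus strand): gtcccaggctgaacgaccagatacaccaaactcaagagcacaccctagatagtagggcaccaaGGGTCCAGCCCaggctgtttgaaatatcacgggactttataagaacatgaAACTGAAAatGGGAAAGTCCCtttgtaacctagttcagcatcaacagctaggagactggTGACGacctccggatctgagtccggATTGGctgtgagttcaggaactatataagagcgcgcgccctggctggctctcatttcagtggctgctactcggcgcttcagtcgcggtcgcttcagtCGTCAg
Tap1 (chr17:34187306-34187605, plus strand): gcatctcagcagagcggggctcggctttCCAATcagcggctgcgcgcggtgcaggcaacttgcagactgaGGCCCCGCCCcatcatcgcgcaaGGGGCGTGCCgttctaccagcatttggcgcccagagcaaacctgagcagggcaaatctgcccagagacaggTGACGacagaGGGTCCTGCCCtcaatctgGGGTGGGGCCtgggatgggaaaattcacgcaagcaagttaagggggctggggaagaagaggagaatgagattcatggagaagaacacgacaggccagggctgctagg

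H2-K1, H2-D1 and B2m held all 4 motifs, and the H2-K1 and H2-D1 windows were identical at 176 of 240 bases at their best ungapped shift (73.3%). Tap1 held the kappa-B motif, the CRE core and CCAAT but no interferon regulatory factor core. Psmb9 lies head to head with Tap1 on the opposite strand, and its window shares 275 bases with that of Tap1, so the same motifs stand in both. Among the genes that were higher in KO cells, the Psmb8 window held none of the 4 and 1 match of a GAS motif (TTCNNNGAA, not capitalised), and the Psmb10 window held no match of any of the 5. The Tapbp window held CCAAT alone. Of all 32851 promoters of that length, 23.9% held the interferon regulatory factor core, 50.8% the kappa-B motif, 20.8% the CRE core, 37.4% CCAAT and 8.3% the GAS motif.

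Because let-7g was put back into KO cells, the genes were also searched for let-7 target sites. The mature microRNA is shown with its seed, bases 2 to 8, in capitals, and the 7-base match to that seed (CTACCTC) is in capitals in the 3′ UTR stretches of the genes that held it (GENCODE annotation of GRCm38, longest 3′ UTR of each gene).
let-7g-5p: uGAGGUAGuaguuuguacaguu
Tapbp (chr17:33929119-33929145, plus strand): ggactaaagcCTACCTCtccagctctc
Nlrc5 (chr8:94527124-94527150, plus strand): agcctacccaCTACCTCagcaggattc
The 7-base match stood in 2 of the 10 genes, against 8.96% of 20981 genes with a 3′ UTR. In Nlrc5 the match is followed by an A. The 6-base match TACCTC was found in 3 of the 10, Tap1 being the other gene, and in 23.3% of all genes. The UTRs of the 10 genes were 55 to 1197 bases long, and the median over all genes was 954. Tapbp and Nlrc5 had the longest of the 10, at 1141 and 1197 bases. Both genes were higher in KO_let-7g than in KO_siCtrl, and whether the matches act was not tested.

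The number of reads is not known. Relative depth, read from the smallest value steps and set to 1 in the shallowest library, ranged to 1.82, and 15469 to 16602 genes per library were above 0. Nr6a1 stood at 0.945 to 1.25 FPKM in WT_siCtrl, 10.2 to 12.6 in KO_siCtrl, and lower again at 3.39 to 5.38 in KO_let-7g and 3.31 to 4.3 in KO_siNr6a1. Dicer1 was at 5.58 to 8.24 FPKM in WT_siCtrl and 3.63 to 4.06 in KO_siCtrl, a value over the whole gene that does not check the deleted part. Of 12 MSC markers, 11 were tested, while Thy1 was at 0 in 11 libraries and 0.00542 FPKM in 1. The matrix genes Col1a1 and Col1a2 were the highest MSC markers in WT_siCtrl and fell in KO_siCtrl, Col1a2 from 1378 ± 109 to 283 ± 12.9 FPKM. Ly6a and Cd44 rose there by 1.41 and 0.89 on the log2(FPKM + 1) scale (limma, adjusted p = 4.22e-06 and 5.93e-05). In all, 4 MSC markers rose and 6 fell in KO_siCtrl, against 29.1% and 25.2% of all genes tested. The 6 endothelial markers were all under 1 FPKM in every library, and so were 4 of 6 epithelial markers and 15 of 16 blood and antigen presenting cell markers, including Ptprc at 0.0177 FPKM at most. The summed level of the blood list was 2.19 to 3 FPKM in WT_siCtrl, 2.31 to 3.39 in KO_siCtrl, 5.55 to 8.14 in KO_let-7g and 2.37 to 2.7 in KO_siNr6a1; its tested member, the lysosomal gene Cd68, rose from 1.84 ± 0.453 to 5.81 ± 1.32 FPKM (SD, n = 3) in KO_let-7g. The epithelial keratin Krt19 fell from 1.12 ± 0.316 to 0.146 ± 0.0707 FPKM there. On the log2(FPKM + 1) scale Krt19 fell from KO_siCtrl by 0.88 in KO_let-7g and by 0.92 in KO_siNr6a1 (limma, adjusted p = 0.000629 and 0.00109). The part of these in the class I values was not tested. In bulk RNA, fewer cells with a gene on and less RNA per cell cannot be told apart.

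WT_siCtrl replicate 0 stood apart from its group for several class I genes, with H2-K1 at 372 FPKM against 779 and 762 in the other WT_siCtrl libraries and Psmb9 at 35.8 against 68.9 and 77.3. The differences of the 10 genes from WT_siCtrl that it moved most are therefore given without it as well. Its relative depth was 1.11, against 1.29 and 1.28 in the other WT_siCtrl libraries, and its part in these values was not tested.

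The pathway split between the genotypes. In KO_siCtrl against WT_siCtrl, 6 genes fell (H2-K1, H2-D1, B2m, Tap1, Psmb9 and Nlrc5), 2 rose (Psmb8 and Psmb10), and Tap2 and Tapbp did not pass the test; over all 11801 genes tested, 25.2% were called lower and 29.1% higher, 54.3% in all. In KO_let-7g against KO_siCtrl, 8 of the 10 rose and 0 fell (45.6% of all genes called, 27.5% higher and 18.2% lower), with Psmb8 and Psmb10 not passing. In KO_siNr6a1 against KO_siCtrl, 3 rose (Tap1, Tapbp and Psmb10) and 0 fell (29.4% called, 13.2% higher and 16.3% lower). The count for siNr6a1 was 5 without WT_siCtrl replicate 0, a library of neither group compared, with H2-D1 and Psmb9 added. It was 2 with no filter on low values, and without KO_siCtrl replicate 1 or 2 or KO_siNr6a1 replicate 0 or 1. The count for let-7g was 6 to 9 with 1 library left out. Nr6a1 itself differed between the treated groups by 0.14 on the log2(FPKM + 1) scale (limma, adjusted p = 0.466). Calls are from limma on log2(FPKM + 1) with a Benjamini-Hochberg adjusted p under 0.05, a difference with let-7g or with siNr6a1 is one against KO_siCtrl, and these comparisons share the KO_siCtrl libraries.

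**Figure D1:**
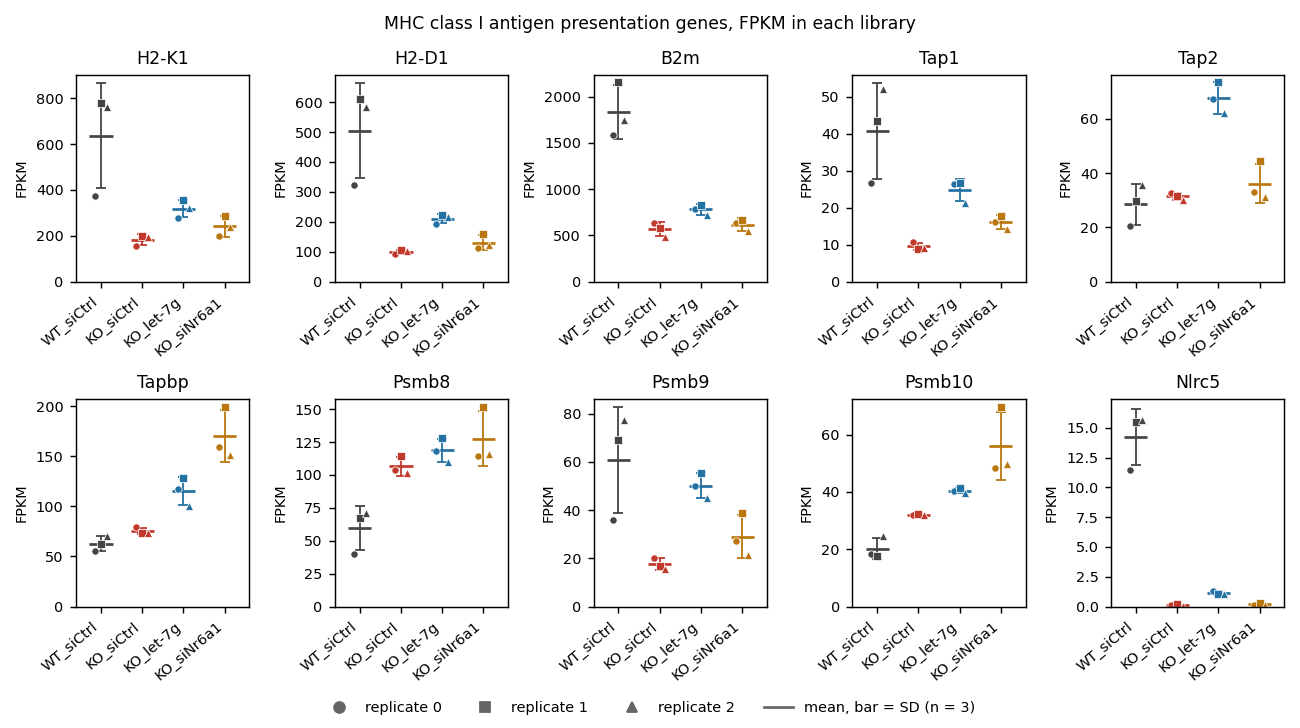
FPKM of each gene (vertical axes, linear and starting at 0) in the 3 libraries of each group, with the mean and SD (n = 3). The 4 groups do not overlap for H2-D1, from WT_siCtrl (505 FPKM on average) over KO_let-7g (210.4) and KO_siNr6a1 (131) to KO_siCtrl (100.1), though KO_siNr6a1 against KO_siCtrl did not pass the test, while Psmb10 is lowest in WT_siCtrl (20.1 FPKM).

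H2-K1, the heavy chain of the K molecule, stood at 372, 779 and 762 FPKM in WT_siCtrl replicates 0, 1 and 2. It was at 158, 198 and 196 in KO_siCtrl, 278, 356 and 324 in KO_let-7g, and 197, 286 and 239 in KO_siNr6a1. All WT_siCtrl libraries lay above all KO libraries, and KO_let-7g lay wholly above KO_siCtrl, whereas KO_siNr6a1 overlapped both. H2-K1 fell by 1.72 on the log2(FPKM + 1) scale in KO_siCtrl (limma, adjusted p = 0.000169), and by 2.07 without WT_siCtrl replicate 0. With let-7g it rose by 0.79 (95% interval 0.24 to 1.35, adjusted p = 0.0243), a call that was lost without KO_siCtrl replicate 0 (0.69, adjusted p = 0.0828), without KO_let-7g replicate 1 (0.71, 0.0772) or replicate 2 (0.78, 0.0588), and with no filter on low values (0.0561). With siNr6a1 the difference of 0.38 (95% interval -0.18 to 0.94) did not pass (adjusted p = 0.288), except with library weights (0.45, adjusted p = 0.0411).

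H2-D1, the heavy chain of the D molecule, was at 322, 609 and 583 FPKM in WT_siCtrl and at 91.9, 106 and 102 in KO_siCtrl. In KO_let-7g it was at 194, 222 and 216, and in KO_siNr6a1 at 113, 158 and 121. The 4 groups did not overlap, in the order WT_siCtrl, KO_let-7g, KO_siNr6a1 and KO_siCtrl from high to low. H2-D1 fell by 2.27 in KO_siCtrl (adjusted p = 5.84e-06, and by 2.56 without WT_siCtrl replicate 0) and rose by 1.06 with let-7g (adjusted p = 0.00189). The difference with siNr6a1, 0.37 (95% interval -0.10 to 0.84), did not pass (adjusted p = 0.216); it was called without WT_siCtrl replicate 0, a library of neither group compared (adjusted p = 0.0378). KO_let-7g exceeded KO_siNr6a1 by 0.70 (adjusted p = 0.0221).

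B2m, the light chain that every class I molecule needs, was the most abundant of the 10 in every library, at 1588, 2155 and 1751 FPKM in WT_siCtrl and 629.8, 585 and 488 in KO_siCtrl. It was at 791, 834 and 719.7 FPKM in KO_let-7g and 639, 671 and 544 in KO_siNr6a1. KO_let-7g lay above the other KO libraries and below WT_siCtrl, and KO_siNr6a1 overlapped KO_siCtrl. B2m fell by 1.68 in KO_siCtrl (adjusted p = 2.13e-06), rose by 0.47 with let-7g (adjusted p = 0.0171) and differed by 0.13 with siNr6a1 (95% interval -0.18 to 0.43, adjusted p = 0.537). The rise with let-7g was not called without KO_siCtrl replicate 2 (0.36, adjusted p = 0.0699) or without KO_let-7g replicate 1 (0.42, adjusted p = 0.0591).

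The ratio of H2-K1 to H2-D1 within a library, which no scaling of the library changes, was 1.15 to 1.31 in WT_siCtrl, 1.72 to 1.91 in KO_siCtrl, 1.44 to 1.6 in KO_let-7g and 1.75 to 1.97 in KO_siNr6a1. H2-D1 changed by more than H2-K1 in KO_siCtrl and with let-7g, whereas with siNr6a1 the differences were alike (0.37 and 0.38, neither called). They share sequence: 217 stretches of 36 bases stand in transcripts of both, and 17.9% of the H2-K1 and 23.3% of the H2-D1 stretches also occur in transcripts of another gene, so the authors' counting could split reads between them and related H2 genes.

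Tap1 and Tap2, the subunits of 1 transporter, did not move together. Tap1 was at 26.7, 43.6 and 52.2 FPKM in WT_siCtrl, 10.7, 8.78 and 9.15 in KO_siCtrl, 26.3, 26.8 and 21.3 in KO_let-7g, and 16.3, 17.9 and 14.3 in KO_siNr6a1. KO_siCtrl, KO_siNr6a1 and KO_let-7g formed 3 separate steps, and KO_let-7g reached the lowest WT_siCtrl library. Tap1 fell by 1.94 in KO_siCtrl (limma, adjusted p = 1.42e-05, and by 2.21 without WT_siCtrl replicate 0), rose by 1.29 with let-7g (adjusted p = 0.000429) and rose by 0.70 with siNr6a1 (adjusted p = 0.0238). That last call was lost with no filter on low values (adjusted p = 0.0539) and without KO_siCtrl replicate 1 (0.0742) or 2 (0.0648), or KO_siNr6a1 replicate 0 (0.0584) or 1 (0.0804). KO_let-7g exceeded KO_siNr6a1 by 0.59 (adjusted p = 0.0381).

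Tap2 was at 20.5, 29.6 and 35.4 FPKM in WT_siCtrl, 32.6, 31.5 and 30.1 in KO_siCtrl, 67.1, 73.6 and 62.1 in KO_let-7g, and 33.1, 44.3 and 31.0 in KO_siNr6a1. KO_let-7g stood above all the other libraries, which overlapped. The difference of KO_siCtrl from WT_siCtrl was 0.17 (95% interval -0.22 to 0.56, adjusted p = 0.454) and -0.044 without WT_siCtrl replicate 0. Tap2 rose by 1.08 with let-7g (adjusted p = 0.000567), exceeded KO_siNr6a1 there by 0.90 (adjusted p = 0.00231) and WT_siCtrl by 1.25 (adjusted p = 0.000129). With siNr6a1 it differed by 0.18 (95% interval -0.21 to 0.57, adjusted p = 0.482). The ratio of Tap1 to Tap2 was 1.41 ± 0.1 in WT_siCtrl and 0.304 ± 0.0254 in KO_siCtrl, 0.367 ± 0.025 with let-7g and 0.452 ± 0.0443 with siNr6a1 (SD, n = 3), and every KO library lay below 1.3, the lowest WT_siCtrl ratio. Of the 36-base stretches of Tap2, 14.6% also occur in transcripts annotated to other genes, so its reads could be split in the counting.

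Tapbp, which encodes tapasin, was at 55.1, 62.2 and 69.99 FPKM in WT_siCtrl, 78.8, 73.3 and 73.6 in KO_siCtrl, 117, 128 and 100.7 in KO_let-7g, and 159, 199.5 and 151 in KO_siNr6a1. Levels were higher in that order of groups, without overlap. The step from WT_siCtrl to KO_siCtrl, 0.27 (95% interval -0.0031 to 0.55), did not pass (adjusted p = 0.0874), except without WT_siCtrl replicate 2 (0.36, adjusted p = 0.0458). Tapbp rose by 0.60 with let-7g (adjusted p = 0.0024) and by 1.15 with siNr6a1 (adjusted p = 0.000105), and KO_let-7g was below KO_siNr6a1 (-0.55, adjusted p = 0.00496). Of the 36-base stretches of Tapbp, 22.9% also occur in transcripts annotated to other genes.

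The immunoproteasome subunits split as well. Psmb8, which replaces the catalytic subunit Psmb5, was at 40.2, 67.0 and 70.9 FPKM in WT_siCtrl, 104, 115 and 101.4 in KO_siCtrl, 118, 128 and 109.8 in KO_let-7g, and 115, 152 and 116 in KO_siNr6a1. All KO libraries lay above all WT_siCtrl libraries, and the KO groups overlapped. Psmb8 rose by 0.87 in KO_siCtrl (limma, adjusted p = 0.00224, and by 0.62 without WT_siCtrl replicate 0). It differed from KO_siCtrl by 0.15 with let-7g (95% interval -0.26 to 0.56, adjusted p = 0.54) and by 0.25 with siNr6a1 (-0.16 to 0.66, adjusted p = 0.352).

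Psmb9, which replaces Psmb6 and shares its promoter with Tap1, was at 35.8, 68.9 and 77.3 FPKM in WT_siCtrl and 20.3, 16.9 and 15.4 in KO_siCtrl. It was at 49.8, 55.3 and 45.0 in KO_let-7g and 27.0, 38.7 and 21.3 in KO_siNr6a1. The KO groups stood in 3 separate steps, and KO_let-7g lay within the range of WT_siCtrl. Psmb9 fell by 1.67 in KO_siCtrl (adjusted p = 0.000328, and by 2.005 without WT_siCtrl replicate 0) and rose by 1.46 with let-7g (adjusted p = 0.00116). With siNr6a1 the difference of 0.66 (95% interval 0.07 to 1.26) did not pass (adjusted p = 0.0881), and was called without WT_siCtrl replicate 0 (adjusted p = 0.0205) or when the 2 groups alone were fitted (adjusted p = 0.0451). KO_let-7g differed from WT_siCtrl by -0.20 (adjusted p = 0.54), and by -0.54 without WT_siCtrl replicate 0, where the difference was called (adjusted p = 0.0475).

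Tap1 and Psmb9 share 177 of their 36-base stretches, and no source used here states whether reads were counted by strand, so those over their common start cannot be assigned to one or the other with certainty. In all, 7.4% of the Tap1 and 13.4% of the Psmb9 stretches were shared with another gene.

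Psmb10, which replaces Psmb7, was at 18.3, 17.7 and 24.4 FPKM in WT_siCtrl, 31.8, 32.1 and 32.0 in KO_siCtrl, 40.3, 41.3 and 39.7 in KO_let-7g, and 48.4, 69.6 and 49.6 in KO_siNr6a1. The 4 groups did not overlap, and their order was that of Tapbp. Psmb10 rose by 0.66 in KO_siCtrl (adjusted p = 0.00242) and by 0.77 with siNr6a1 (adjusted p = 0.00245). With let-7g the difference was 0.33 (95% interval 0.02 to 0.64, adjusted p = 0.0788; called in 4 of 23 alternatives, with adjusted p from 0.00546 to 0.177), and KO_let-7g was below KO_siNr6a1 (-0.44, adjusted p = 0.0298).

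The constitutive partners were measured in the same libraries. Psmb5 was at 151 ± 22.7 FPKM (SD, n = 3) in WT_siCtrl, 174 ± 15.8 in KO_siCtrl, 133 ± 13.4 with let-7g and 187 ± 25.9 with siNr6a1, and fell with let-7g (-0.38, adjusted p = 0.0364, a call lost in 6 of 23 alternatives). Psmb7 fell with let-7g too (-0.29, adjusted p = 0.00769), and Psmb6 did not pass there (-0.04, adjusted p = 0.85). Within a library, Psmb8 stood at 0.39 ± 0.0673 of Psmb5 in WT_siCtrl, 0.618 ± 0.0888 in KO_siCtrl, 0.898 ± 0.145 with let-7g and 0.68 ± 0.0422 with siNr6a1. Psmb9 stood at 0.439 ± 0.106 of Psmb6 in WT_siCtrl, 0.0944 ± 0.0218 in KO_siCtrl, 0.276 ± 0.0493 with let-7g and 0.171 ± 0.0394 with siNr6a1. Psmb10 stood at 0.0775 ± 0.0155, 0.0963 ± 0.00462, 0.149 ± 0.0131 and 0.164 ± 0.0262 of Psmb7 in the same order. All 3 ratios were higher in every KO_let-7g library than in every KO_siCtrl library. The ratios of Psmb9 and Psmb10 were so in every KO_siNr6a1 library too, while that of Psmb8 overlapped KO_siCtrl there.

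**Figure D2:**
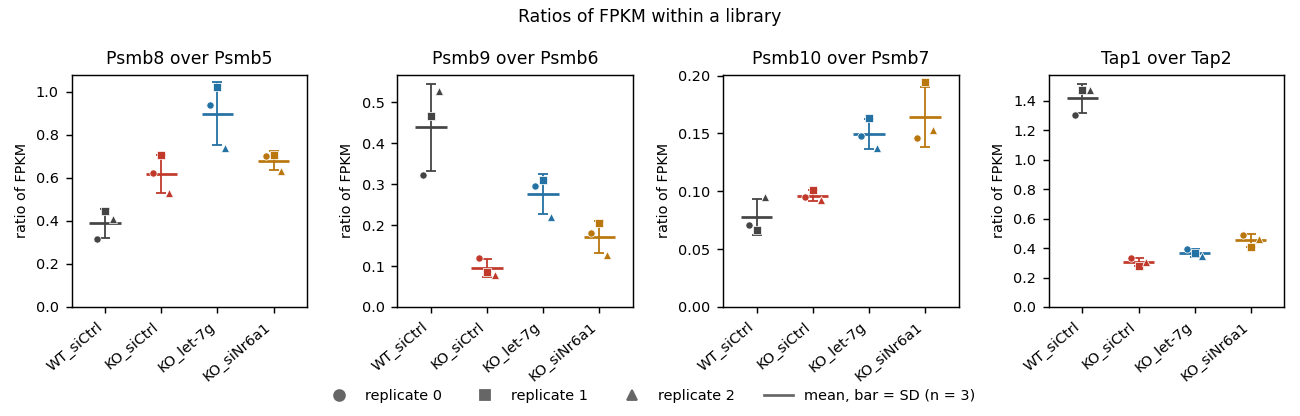
Ratio of FPKM within a library for each immunoproteasome subunit over the constitutive subunit it replaces and for Tap1 over Tap2, with the mean and SD of 3 libraries per group; the vertical axes start at 0. Psmb9 over Psmb6 is lowest in KO_siCtrl (0.0944 on average), Psmb8 over Psmb5 is lowest in WT_siCtrl (0.39), and Tap1 over Tap2 separates WT_siCtrl (1.41) from all KO libraries.

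Nlrc5, the transactivator, had the largest difference of the 10 genes between KO_siCtrl and WT_siCtrl. It was at 11.5, 15.5 and 15.6 FPKM in WT_siCtrl and at 0.153, 0.19 and 0.0751 in KO_siCtrl. KO_let-7g libraries held 1.29, 1.07 and 1.01 FPKM, and KO_siNr6a1 libraries 0.156, 0.261 and 0.0982. WT_siCtrl was far above all KO libraries, KO_let-7g was separate from the other KO groups, and KO_siNr6a1 overlapped KO_siCtrl. The mean FPKM of WT_siCtrl was 102 times that of KO_siCtrl and 12.6 times that of KO_let-7g, and the KO_let-7g mean was 8.07 times the KO_siCtrl mean. On the log2(FPKM + 1) scale, which understates changes at such low values, Nlrc5 fell by 3.73 in KO_siCtrl (limma, adjusted p = 2.03e-09) and rose by 0.90 with let-7g (adjusted p = 0.000151); with a pseudocount of 0.1 the values were -5.92 and 2.38. With siNr6a1 the difference was 0.04 (95% interval -0.23 to 0.31, adjusted p = 0.844), and KO_let-7g exceeded KO_siNr6a1 by 0.86 (adjusted p = 0.000308). All KO_siCtrl and KO_siNr6a1 libraries were at 0.261 FPKM or lower, where this scale leaves little room for a difference. The narrow interval therefore does not show that siNr6a1 left Nlrc5 unchanged. Fitted alone, these 2 groups left Nlrc5 below the filter and untested.

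The treatments could be compared directly, as KO_let-7g against KO_siNr6a1. Of the 10 genes, 5 were higher with let-7g (H2-D1, Tap1, Tap2, Psmb9 and Nlrc5) and 2 were lower (Tapbp and Psmb10), against 27.6% of all genes called higher, 13.3% lower and 40.9% in all. H2-K1 (0.41, 95% interval -0.14 to 0.97, adjusted p = 0.215), B2m (0.34, 0.04 to 0.64, adjusted p = 0.0692) and Psmb8 (-0.10, -0.51 to 0.32, adjusted p = 0.717) did not pass. The median of all genes was itself 0.12 higher with let-7g, and 67.6% of called genes were higher; with median of ratios scaling the median was -0.01, 45.1% of called genes were higher, and 2 of the 10 were called higher (Tap2 and Nlrc5) and 2 lower. With no filter on low values 3 of the 10 were called. With the replicate number as a block 9 were called, H2-K1 (adjusted p = 0.0385) and B2m (adjusted p = 0.0161) being added. Leaving out 1 library gave 3 to 8 calls: 3 without KO_let-7g replicate 1, and 4 without KO_let-7g replicate 0 or 2 or KO_siNr6a1 replicate 0 or 2. Over 23 alternatives, H2-D1, Tap1, Psmb9 and Psmb10 lost their calls in 6, 7, 7 and 5, while Tap2 and Tapbp kept theirs in all 23 and Nlrc5 in the 22 that tested it.

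**Figure D3:**
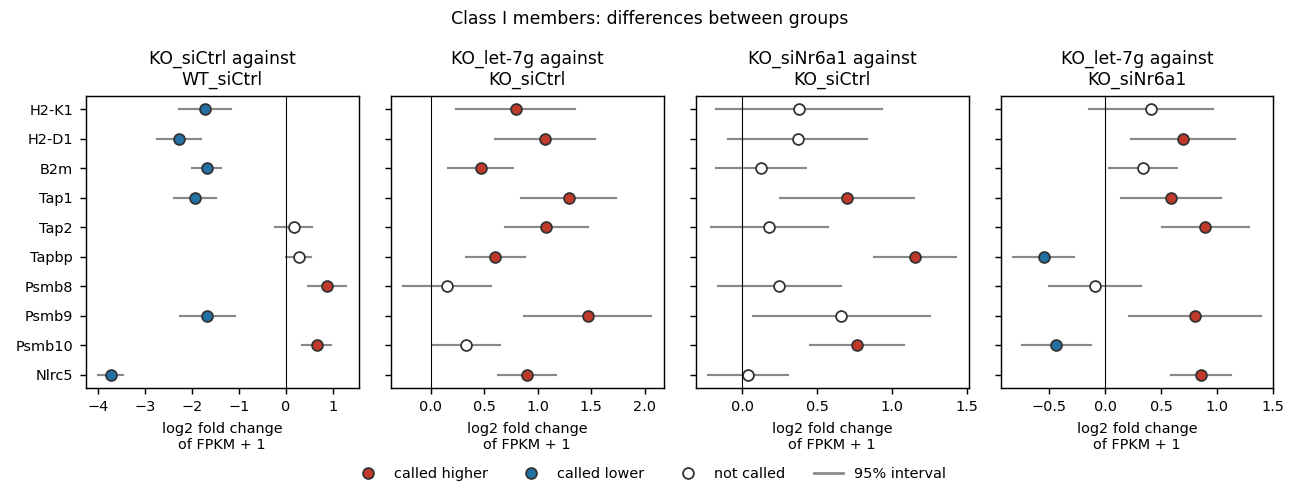
Difference between groups of each class I gene (log2 fold change of FPKM + 1, horizontal axes of differing range) with its 95% interval from limma; red marks called higher, blue called lower and open points not called at an adjusted p of 0.05. With let-7g 8 genes are called higher and with siNr6a1 3, and Tapbp and Psmb10 are the genes lower with let-7g than with siNr6a1.

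In both treated groups most of the 10 genes still differed from WT_siCtrl. KO_let-7g against WT_siCtrl was lower for H2-K1 (-0.93), H2-D1 (-1.20), B2m (-1.22), Tap1 (-0.65) and Nlrc5 (-2.83), and higher for Tap2 (1.25), Tapbp (0.87), Psmb8 (1.03) and Psmb10 (0.99), 5 and 4 genes of the 10 (22.8% and 35.3% of all genes, 58.2% in all). Without WT_siCtrl replicate 0 the differences of H2-K1, H2-D1, Tap1, Tap2 and Psmb8 were -1.27, -1.5, -0.92, 1.04 and 0.77, all called. The call of Tap1 was lost without WT_siCtrl replicate 1 (adjusted p = 0.0594) or 2 (0.0682) or KO_let-7g replicate 2 (0.0638). KO_siNr6a1 against WT_siCtrl was lower for 6 (H2-K1 -1.34, H2-D1 -1.90, B2m -1.56, Tap1 -1.24, Psmb9 -1.01 and Nlrc5 -3.69) and higher for 3 (Tapbp 1.43, Psmb8 1.12 and Psmb10 1.42), with 27.4% and 27.0% of all genes called in those directions and 54.3% in all. Without WT_siCtrl replicate 0 the differences of H2-K1, H2-D1, Tap1, Psmb9 and Psmb8 were -1.69, -2.20, -1.51, -1.34 and 0.87, all called. Tap2 (0.35, 95% interval -0.04 to 0.74) did not pass against WT_siCtrl there (adjusted p = 0.118), except without WT_siCtrl replicate 2 (0.52, adjusted p = 0.028), and differed by 0.14 without replicate 0. These comparisons share WT_siCtrl with KO_siCtrl against WT_siCtrl.

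The other class I heavy chains were the nonclassical H2-Q, H2-T and related genes and the class I-like genes Mr1, Cd1d1 and Cd1d2. Most followed H2-K1 and H2-D1 in KO_siCtrl and with let-7g. Of 23 listed genes, 19 were in the table and 17 were tested. In KO_siCtrl 16 fell and 0 rose (median -1.21, against 0.04 over all genes tested, of which 25.2% fell), and with let-7g 14 rose and 0 fell (median 0.87, all genes 0.08, of which 27.5% rose). With siNr6a1 1 rose (Mr1, 0.46, adjusted p = 0.00531) and 0 fell (median 0.24, all genes -0.06, of which 13.2% rose and 16.3% fell). Against KO_siNr6a1, KO_let-7g was higher for 8 and lower for 0 (median 0.60, all genes 0.12, of which 27.6% were higher and 13.3% lower). That last count was 5 to 7 under the other scalings, 14 with the replicate block and 13 without WT_siCtrl replicate 0. Without that library 16 of these genes were tested, and 15 of the 16 fell in KO_siCtrl, with a median of -1.66.

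H2-Gs10 was at 72.7, 154 and 153 FPKM in WT_siCtrl, 14.1, 12.9 and 11.0 in KO_siCtrl, 40.6, 52.0 and 40.2 in KO_let-7g, and 19.8, 25.5 and 18.5 in KO_siNr6a1. The groups did not overlap, and H2-Gs10 fell by 3.15 in KO_siCtrl (adjusted p = 1.81e-06) and rose by 1.72 with let-7g (adjusted p = 0.000263). H2-Q7, which encodes a Qa-2 molecule, was at 74.3 ± 32.4 FPKM in WT_siCtrl, 5.26 ± 0.771 in KO_siCtrl, 11.3 ± 1.38 with let-7g and 6.42 ± 1.21 with siNr6a1 (SD, n = 3). It fell by 3.48 in KO_siCtrl (adjusted p = 2.72e-06) and rose by 0.98 with let-7g (adjusted p = 0.0186, a call lost without KO_siCtrl replicate 0 or KO_let-7g replicate 1). H2-Q10 and H2-Bl fell by 1.77 and 1.62 and rose by 0.73 and 0.85. H2-M3, which presents N-formylated peptides and was picked out after its values were seen, did not pass in KO_siCtrl (-0.27, adjusted p = 0.167) or with let-7g (-0.09, adjusted p = 0.684). Cd1d1 and Cd1d2, also picked out afterwards, fell by 0.58 and 0.48 in KO_siCtrl (adjusted p = 0.0146 and 0.00322). With let-7g they did not pass (-0.24 and 0.03, adjusted p = 0.292 and 0.828). The H2 genes are close copies of one another, so their separate values are uncertain.

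**Figure D4:**
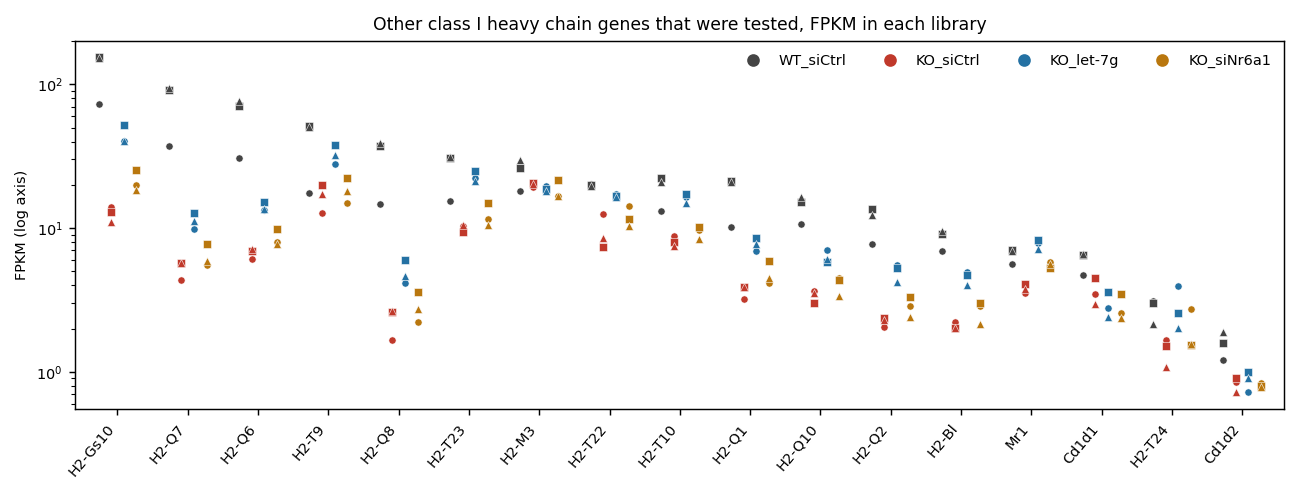
FPKM (log axis) of the 17 tested class I heavy chain genes outside H2-K1 and H2-D1, with 1 point per library and groups side by side. WT_siCtrl lies highest for most H2-Q and H2-T genes with 1 library below the others (H2-Gs10 at 72.7 against 154 and 153 FPKM), and KO_let-7g lies above KO_siCtrl except for H2-M3 and the Cd1d genes.

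Genes that cut, trim and load peptides for class I outside the 10 moved in both directions. Of 18 tested, 9 rose and 3 fell in KO_siCtrl (median 0.29, all genes 29.1% and 25.2%), 2 rose and 6 fell with let-7g (median -0.14, all genes 27.5% and 18.2%), and 2 rose and 2 fell with siNr6a1 (median 0.05, all genes 13.2% and 16.3%). Erap1, the aminopeptidase that trims peptides in the endoplasmic reticulum, rose in each comparison: it was at 7.26 ± 1.08 FPKM in WT_siCtrl, 16.1 ± 2.96 in KO_siCtrl, 29.7 ± 3.73 with let-7g and 24.2 ± 2.19 with siNr6a1 (1.04, 0.85 and 0.57 for KO, let-7g and siNr6a1, the last not called without KO_siNr6a1 replicate 0). Sec61a1, a subunit of the protein channel of that membrane, fell by 0.35 in KO_siCtrl and rose by 1.22 with let-7g and 1.05 with siNr6a1. Psme1, a subunit of the interferon-inducible proteasome activator, rose by 0.83 in KO_siCtrl (adjusted p = 9.86e-05) and did not pass with let-7g (0.18, adjusted p = 0.22). Npepps, a cytosolic aminopeptidase, rose by 1.10 in KO_siCtrl and did not pass with let-7g (-0.13, adjusted p = 0.253).

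Of the 14 constitutive proteasome core subunits outside the immunoproteasome, 4 rose and 1 fell in KO_siCtrl (median 0.21, all genes 29.1% and 25.2%), 1 rose and 5 fell with let-7g (median -0.15, all genes 27.5% and 18.2%), and 1 rose and 0 fell with siNr6a1 (median -0.04, all genes 13.2% and 16.3%). Psma4 fell by 0.62 in KO_siCtrl (adjusted p = 4.07e-05), Psma6 rose by 0.34 there and fell by 0.22 with let-7g (not called without KO_siCtrl replicate 1), and Psma2 fell by 0.30 with let-7g (adjusted p = 0.0132). With median of ratios scaling 0 rose and 7 fell with let-7g.

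Transcription factors that act on class I promoters were tested as a list of 19. With let-7g 13 rose and 0 fell (median 0.48, all genes 27.5% and 18.2%), and with siNr6a1 7 rose and 3 fell (median 0.09, all genes 13.2% and 16.3%). In KO_siCtrl 5 rose and 4 fell (median 0.12), near the shares of 29.1% and 25.2% over all genes. With median of ratios or quantile scaling 1 member fell with let-7g. Rela, the p65 subunit of NF-kappa-B, was at 33.6, 39.6 and 39.1 FPKM in WT_siCtrl, 17.99, 15.8 and 19.5 in KO_siCtrl, 69.9, 64.8 and 76.8 in KO_let-7g, and 45.9, 47.5 and 45.8 in KO_siNr6a1. The groups did not overlap, and Rela fell by 1.04 in KO_siCtrl (adjusted p = 5.4e-06) and rose by 1.93 with let-7g (adjusted p = 5.34e-07) and 1.34 with siNr6a1 (adjusted p = 1.7e-05). Nfkb1, the p50 precursor, rose by 0.87 in KO_siCtrl and 0.30 with let-7g (not called with median of ratios scaling), and did not pass with siNr6a1 (-0.11, adjusted p = 0.31).

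Irf1, an interferon-induced activator of class I genes, moved opposite to the heavy chains in KO_siCtrl. It was at 21.5, 23.4 and 25.2 FPKM in WT_siCtrl, 44.0, 40.7 and 39.2 in KO_siCtrl, 65.1, 62.7 and 53.4 in KO_let-7g, and 60.9, 57.4 and 50.6 in KO_siNr6a1. WT_siCtrl was lowest and the treated groups overlapped each other above KO_siCtrl: Irf1 rose by 0.80 in KO_siCtrl (adjusted p = 5.13e-05), 0.53 with let-7g (adjusted p = 0.00123) and 0.44 with siNr6a1 (adjusted p = 0.00743). Irf2 rose by 0.75 with let-7g and 0.36 with siNr6a1 (the latter call lost in 3 of 23 alternatives). Irf9, a transcription factor of type I interferon signalling, rose by 0.83 with let-7g (adjusted p = 0.00637). Stat3 rose by 0.42 in KO_siCtrl, 0.94 with let-7g and 1.27 with siNr6a1. Stat2 did not pass in KO_siCtrl (-0.09) or with let-7g (-0.23). Of the RFX subunits, Rfx5 fell by 0.38 in KO_siCtrl (a call lost in 5 of 23 alternatives) and rose by 0.51 with let-7g, Rfxap rose by 0.48 with let-7g, and Rfxank fell by 0.45 with siNr6a1 (adjusted p = 0.0224, a call lost in 4 of 23).

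**Figure D5:**
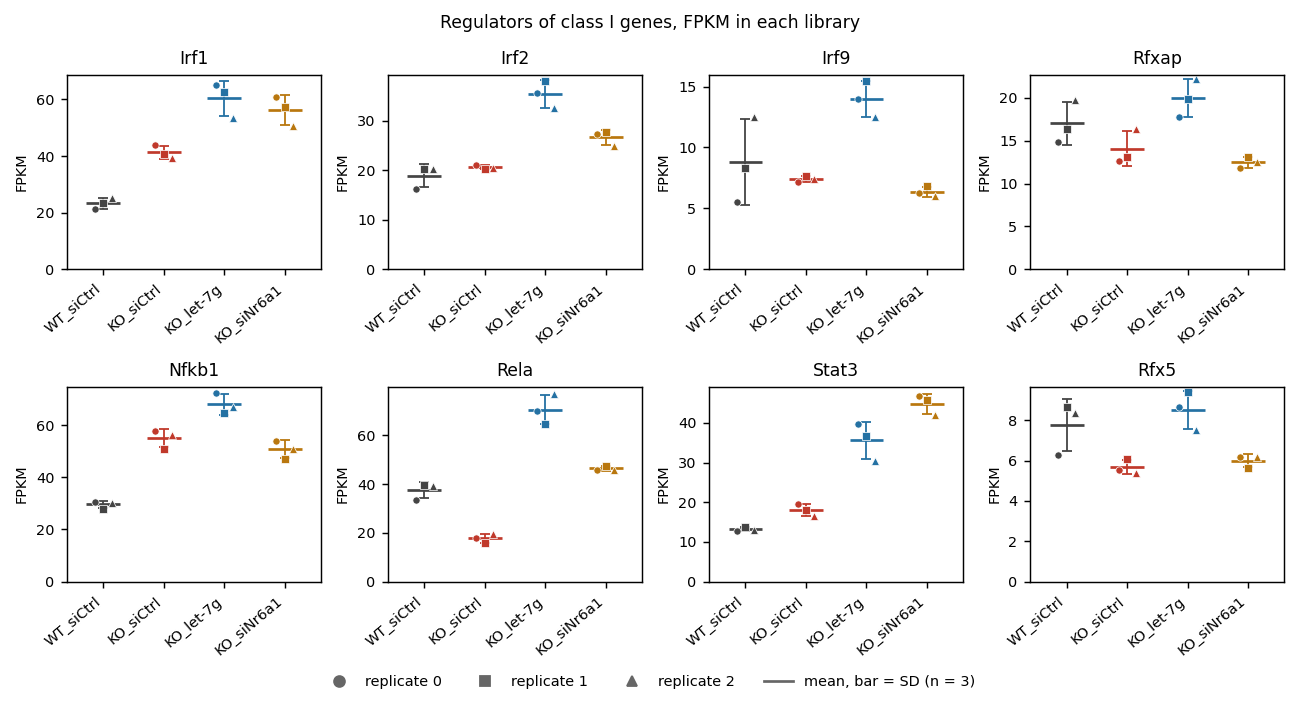
FPKM of 8 regulators of class I genes in each library, with the mean and SD of 3 libraries per group; the vertical axes start at 0. Rela is lowest in KO_siCtrl (17.7 FPKM on average) and highest in KO_let-7g (70.5), whereas Irf1 is lowest in WT_siCtrl (23.3).

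Of 37 interferon-induced genes outside class I, 29 were tested: 8 rose and 7 fell in KO_siCtrl (median 0.10), near the shares of 29.1% and 25.2% over all genes. With let-7g 12 rose and 0 fell (median 0.44, all genes 27.5% and 18.2%), and with siNr6a1 3 rose and 1 fell (median 0.14, all genes 13.2% and 16.3%). Without WT_siCtrl replicate 0, 6 rose and 9 fell in KO_siCtrl (median -0.08). Irgm1, an interferon-induced GTPase, fell by 1.91 in KO_siCtrl and rose by 0.59 with let-7g, and Ifit2 fell by 1.08 and rose by 0.46, the rise not being called in 3 of 23 alternatives. Rsad2 went the other way in KO_siCtrl, from 0.176 ± 0.0464 to 3.58 ± 1.06 FPKM (1.93, adjusted p = 2.46e-06), and differed by -0.01 with let-7g (adjusted p = 0.982). Rsad2 passed the filter on low values only through KO libraries, where it is high. Ifi203 rose by 0.59 in KO_siCtrl and by 0.68 with let-7g.

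Of the interferon ligands, Ifnb1 and Ifng alone were looked at, and both were near 0. Ifnb1 was listed at 0 in 10 of 12 libraries and at 0.108 FPKM at most, and Ifng at 0 in 11 of 12 and at 0.0214 at most. The other interferon genes were not read. The 10 tested genes around them encode receptors, kinases and 3 inhibitors. In KO_siCtrl 5 rose and 3 fell (all genes 29.1% and 25.2%), and the inhibitors Socs1, Socs3 and Ptpn2 made up 3 of the 5; with let-7g 3 rose and 2 fell (27.5% and 18.2%). Ifngr1, the ligand-binding chain of the interferon gamma receptor, fell by 1.08 in KO_siCtrl, from 43.6 ± 5.21 to 20.03 ± 1.11 FPKM, and rose by 0.77 with let-7g (adjusted p = 9.53e-05) and 0.52 with siNr6a1 (adjusted p = 0.00264). The kinase Jak1 fell by 0.74 in KO_siCtrl, and Tyk2 fell by 1.04 with let-7g. Socs3, an inhibitor of cytokine signalling, rose by 1.62 in KO_siCtrl (adjusted p = 6.57e-05).

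The genes whose pattern was most like the class I genes as a whole were found by the Pearson correlation of log2(FPKM + 1) with the mean standardized level of the 10 genes over the 12 libraries, which fall into 4 groups. They were Snn (0.98), Rab3d (0.98), Dhrs4 (0.96), Pbxip1 (0.96) and Gstz1 (0.94). The mean combines genes that moved in opposite directions and is a description alone.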

How the data were processed

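The authors deposited 1 table of FPKM values, with 21881 genes and 12 columns, each carrying the name of 1 library. The tools named in the submitters' processing notes are Cufflinks 1.0.3 and TopHat 1.2.0, with mm9 as genome build; no source used here gives the settings or the use of strand. An FPKM value is relative to a library's total, so a large change in abundant genes moves all other values. Sequences came from RefSeq (GRCm38.p6) and GENCODE (GRCm38), and no coordinate was moved between builds.

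Groups were taken from the sample titles. The 11801 genes that reached an FPKM of 1 in 3 or more libraries were fitted as log2(FPKM + 1) of the deposited values with limma 3.58.1 in R 4.3.3: 1 coefficient per group over all 12 libraries, 8 residual degrees of freedom, two-sided moderated tests whose prior variance followed mean expression, p-values adjusted per comparison by Benjamini-Hochberg over every gene tested, and calls below an adjusted p of 0.05. Fold changes are on this log2 scale unless a ratio of FPKM is named. The script was tested on simulated data. The 10 genes, the gene lists and the comparisons were chosen with earlier results of these data known. Named genes were the 10, up to 4 tested members of each list with the smallest adjusted p in any comparison, the called interferon and RFX regulators, the subunits that immunoproteasome subunits replace, Nr6a1, Dicer1 and the 5 genes most like the 10. H2-M3, Mr1, Cd1d1, Cd1d2, Socs1 and Ptpn2 were added after their values were seen.

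Same-numbered libraries shared deviations from their group means: across genes these correlated at 0.127 to 0.465 in the pairs of 5 comparisons and 0.092 to 0.370 in KO_siNr6a1 against WT_siCtrl, where 1 pair was under the limit of 0.1. In the 5 the numbers appeared to pair the libraries, which no label states. The main fit did not use this pairing, so p-values not said to come from the replicate block are from unpaired tests. The alternatives were other pseudocounts, filters, scalings and variance models, library weights, the replicate number as a block, the 2 compared groups alone, and each library left out. The values of 1 gene in the list of 19 transcription factors are not reported here.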

Additional observations from a re-analysis of the deposited data

How the results depend on the processing

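The fold changes of the 10 genes and of the other listed genes were recomputed under up to 23 alternatives, fewer where a gene was left untested, and those of the other genes in the 3 comparisons that involve KO_siCtrl. Counts over the other gene lists were recomputed under 5. Of 1373 recomputed fold changes of the 10 genes, 1309 kept their direction and their side of the threshold, 39 lost the call, 17 gained one and 8 changed sign, none of the 8 called under either setting. The sign changed for Tap2 in KO_siCtrl against WT_siCtrl without WT_siCtrl replicate 0 (-0.044 to 0.34 over the libraries left out). In KO_siNr6a1 against KO_siCtrl it changed for B2m with library weights (-0.067) and for Nlrc5 with library weights (-0.042), without KO_siCtrl replicate 2 (-0.0019) and without KO_siNr6a1 replicate 1 (-0.015 to 0.085 over the libraries left out). In KO_let-7g against KO_siNr6a1 it changed for Psmb8 with library weights (0.012) and without KO_siNr6a1 replicate 1 (-0.17 to 0.036 over the libraries left out), and in KO_let-7g against WT_siCtrl for Psmb9 without WT_siCtrl replicate 2 (-0.54 to 0.0042 over the libraries left out). With 1 library left out, the number of genes called was 8 to 9 in KO_siCtrl against WT_siCtrl (8 with all libraries), 6 to 9 in KO_let-7g against KO_siCtrl (8), 2 to 5 in KO_siNr6a1 against KO_siCtrl (3), 3 to 8 in KO_let-7g against KO_siNr6a1 (7), 8 to 10 in KO_let-7g against WT_siCtrl (9) and 9 to 10 in KO_siNr6a1 against WT_siCtrl (9). A group left with 2 libraries borrows its spread from the others. In KO_let-7g against KO_siNr6a1 the count was 3 with no filter on low values, where 19916 genes were tested, and 4 with median of ratios scaling; the cause was not tested. With the replicate number as a block (replicate block) the counts were 8, 8, 3, 9, 9 and 9 in the same order, and H2-K1 and B2m in KO_let-7g against KO_siNr6a1 were its added calls. A filter at a mean FPKM of 5 left Nlrc5 untested. Over all genes, the share of called genes that were higher moved from 60.2% to 49.3% in KO_let-7g against KO_siCtrl, 44.8% to 56.3% in KO_siNr6a1 against KO_siCtrl and 60.7% to 47.9% in KO_let-7g against WT_siCtrl with median of ratios scaling, which changed no call of the 10 there. In KO_let-7g against WT_siCtrl the median of all genes was 0.12, and -0.01 with that scaling.

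Read numbers are not known, so no counting error can be given for the low values, and 3 libraries a group limit what can be called.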

Other observations

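The class II pathway, which shows peptides from outside the cell and is normally kept to antigen presenting cells, was read from 10 genes. Its master regulator Ciita, the class II chains H2-Aa, H2-Ab1 and H2-Eb1, and H2-Oa and H2-Ob were under 1 FPKM in every library, and the other 4 were tested. In KO_siCtrl 3 of the 4 rose and 1 fell (29.1% and 25.2% of all genes). The invariant chain Cd74 rose from 10.8 ± 3.44 to 31.9 ± 5.94 FPKM (1.503, limma adjusted p = 0.000633), H2-DMb1 from 8.06 ± 2.7 to 22.01 ± 1.73 (1.39, adjusted p = 0.000139) and H2-DMb2 from 2.72 ± 0.56 to 6.34 ± 0.369 (0.99, adjusted p = 0.00014), while H2-DMa fell by 0.67 (adjusted p = 0.00424). The peptide exchange factor that H2-DMa and H2-DMb encode thus had chains that moved in opposite directions. With let-7g, H2-DMa rose from 4.19 ± 0.71 to 16.1 ± 0.856 FPKM (1.72, adjusted p = 1.36e-05), and with siNr6a1 to 6.37 ± 1.09 (0.50, adjusted p = 0.035, a call lost in 5 of 23 alternatives). Without WT_siCtrl replicate 0 the counts in KO_siCtrl were again 3 and 1.

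Ligands of natural killer and T cell receptors were read from 10 genes, of which 6 were tested. In KO_siCtrl 3 rose and 0 fell (29.1% and 25.2% of all genes), with let-7g 0 rose and 2 fell (27.5% and 18.2%), and with siNr6a1 0 rose and 3 fell (13.2% and 16.3%). Pvr, a ligand of the receptors DNAM-1 and TIGIT, rose from 16.6 ± 0.543 FPKM in WT_siCtrl to 46.1 ± 3.09 in KO_siCtrl (SD, n = 3) and was at 16.3 ± 1.16 with let-7g and 34.1 ± 2.84 with siNr6a1, a fall of 1.44 with let-7g (adjusted p = 1.2e-06). Pvrl2, a related ligand, rose by 2.18 in KO_siCtrl (adjusted p = 1.05e-06). Cd274, which encodes the inhibitory ligand PD-L1, rose from 0.516 ± 0.103 to 2.81 ± 0.233 FPKM (1.33, adjusted p = 4.61e-07). It fell by 0.35 with let-7g (adjusted p = 0.00828) and by 0.37 with siNr6a1 (adjusted p = 0.0109). Cd274 passed the filter on low values only through KO libraries. Raet1d, a ligand of NKG2D, did not pass in KO_siCtrl (-0.06, adjusted p = 0.744).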
